A study of Mus musculus with 6 samples.

Results

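The T cell receptor complex and its coreceptors are represented here by 10 genes, taken by symbol from the count table: Cd3e, Cd3d, Cd3g, Cd247, Trac, Trbc1, Trbc2, Cd4, Cd8a and Cd8b1. All 10 were found among 54532 genes, and all 10 were among the 16237 genes kept after a filter on low counts. RNA was sequenced from abdominal aorta of mice without Olfr2 (Olfr2 knockout, KO) and of wild type (WT) mice at day 7 after aneurysm induction, with 3 libraries for each genotype. Olfr2 is an olfactory receptor gene, an aneurysm is a local widening of the artery wall, and both genotypes underwent the induction. How the aneurysm was induced, the cells that lack Olfr2, and the age, sex and background strain of the animals are not stated in the labels. Nor is it given whether a library came from 1 animal or several, so p-values measure the spread between libraries.

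The receptor of most T cells is a pair of an alpha and a beta chain, which bind antigen held by an MHC molecule on another cell. These chains have almost no cytoplasmic tail and signal through the invariant CD3 epsilon, delta and gamma chains and the zeta chain, whose tails are phosphorylated when the receptor is engaged. The coreceptor CD4 binds MHC class II and marks helper and regulatory T cells, and CD8 binds MHC class I and marks cytotoxic T cells. In the wall of an aneurysm, T cells are part of the infiltrate of leukocytes, together with macrophages, neutrophils and B cells.

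Several of these genes lie side by side in the mouse genome (GRCm38), and Trbc1 and Trbc2 are near-copies of each other. Cd3g (ENSMUSG00000002033, chromosome 9, 44969572 to 44980431, minus strand) and Cd3d (ENSMUSG00000032094, chromosome 9, 44981786 to 44987339, plus strand) are transcribed away from each other from starts 1355 bases apart, and Cd3e (ENSMUSG00000032093, chromosome 9, 44998740 to 45009627, minus strand) lies 11400 bases beyond Cd3d. Cd8b1 (ENSMUSG00000053044, 71322788 to 71337494) and Cd8a (ENSMUSG00000053977, 71373427 to 71379173) are neighbours on the plus strand of chromosome 6, where Trbc1 (ENSMUSG00000076490, 41538218 to 41539881), Trbc2 (ENSMUSG00000076498, 41546730 to 41548352) and Cd4 (ENSMUSG00000023274, 124864692 to 124888221, minus strand) also lie. Trac (ENSMUSG00000076928) is on chromosome 14, at 54220521 to 54224206, and Cd247 (ENSMUSG00000005763), which encodes the zeta chain, is on chromosome 1, at 165788681 to 165877277. The T cell receptor genes are annotated as constant-region segments and the other genes as protein-coding.

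The promoters of the invariant chains are shown because these chains are made together in T cells. Each is 300 bases, 250 before and 50 after the start, credited to RefSeq on GRCm38.p6 and printed in the direction of transcription. Capitals mark GGAAGT, the core bound by factors of the ETS family, or its reverse complement. The windows are chr9:45009562-45009861 (minus strand) for Cd3e, chr9:44981536-44981835 (plus strand) for Cd3d, chr9:44980382-44980681 (minus strand) for Cd3g and chr1:165788431-165788730 (plus strand) for Cd247.
Cd3e: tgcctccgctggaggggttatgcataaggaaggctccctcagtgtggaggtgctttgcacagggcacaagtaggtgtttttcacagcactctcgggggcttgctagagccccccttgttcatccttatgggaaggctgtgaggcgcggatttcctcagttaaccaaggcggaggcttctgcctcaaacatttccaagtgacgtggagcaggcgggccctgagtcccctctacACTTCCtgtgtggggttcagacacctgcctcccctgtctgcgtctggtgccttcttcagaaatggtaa
Cd3d: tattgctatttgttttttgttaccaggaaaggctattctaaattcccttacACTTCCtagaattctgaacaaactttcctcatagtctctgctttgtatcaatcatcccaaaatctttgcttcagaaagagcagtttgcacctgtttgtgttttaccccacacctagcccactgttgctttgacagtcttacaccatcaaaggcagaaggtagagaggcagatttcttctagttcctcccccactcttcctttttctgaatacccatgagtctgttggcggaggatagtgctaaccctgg
Cd3g: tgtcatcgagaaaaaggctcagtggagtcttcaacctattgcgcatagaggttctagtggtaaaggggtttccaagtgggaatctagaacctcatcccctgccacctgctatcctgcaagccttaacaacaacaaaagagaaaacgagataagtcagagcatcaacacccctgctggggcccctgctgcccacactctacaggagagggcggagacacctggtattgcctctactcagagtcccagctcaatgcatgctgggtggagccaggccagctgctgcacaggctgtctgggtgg
Cd247: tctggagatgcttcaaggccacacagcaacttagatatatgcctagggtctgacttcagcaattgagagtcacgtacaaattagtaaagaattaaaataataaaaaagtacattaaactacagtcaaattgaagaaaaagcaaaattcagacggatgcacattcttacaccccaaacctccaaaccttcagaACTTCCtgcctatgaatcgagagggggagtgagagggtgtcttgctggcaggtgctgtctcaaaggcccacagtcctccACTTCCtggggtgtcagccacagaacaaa
The table of promoters held an entry for 5 of the 10 genes, these 4 and Cd8a. Both strands were searched, and matches of different motifs did not overlap. GGAAGT was found in 3 of the 5 promoters, in Cd247 at 2 places and in Cd3e and Cd3d at 1, while 23.8% of all 32851 promoter windows of that length held it. CTTTGA, bound by TCF and LEF factors, was found in Cd3d and Cd247, where 16% of all windows held it. The E-box CANNTG was in 5 of 5, as in 72.3% of all windows. TGTGGT, bound by RUNX factors, and TATAAA were in 0 of 5, where 16.8% and 13.6% of all windows held them. These are matches of letters and not measured binding.

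Trbc1 and Trbc2 encode alternative constant regions of the beta chain, and a T cell uses either of them. Over 518 coding bases, the GENCODE transcripts differed at 23, an identity of 95.6%, and the longest identical run was 259 bases. The last 60 coding bases, 459 to 518, hold 11 of the differences and are shown because reads from this end can tell the genes apart. Capitals mark the bases that differ.
Trbc1: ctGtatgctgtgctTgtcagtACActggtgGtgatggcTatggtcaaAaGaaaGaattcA
Trbc2: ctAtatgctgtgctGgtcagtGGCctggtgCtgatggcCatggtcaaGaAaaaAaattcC
Reads within the identical runs can be dropped or split by the counting, so the levels of Trbc1 and Trbc2 are uncertain.

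The libraries held 17248918 to 21872027 counts, and the 10 genes together took 2934 to 5762 counts in a library. The targeted gene, Olfr2, had a count of 0 in each of the 6 libraries of both genotypes, so its count does not check the labels; a library at 0 could hold up to 3 counts, or 0.14 to 0.182 CPM (counts scaled to a fixed library size, a limit for counting error alone). The tissue label was met by smooth muscle genes, whose 5 fixed markers summed to 1480 to 2380 CPM in KO and 846 to 1320 CPM in WT. Most of this was Acta2, and the other 4 summed to 310 to 470 CPM in KO and 147 to 167 CPM in WT. Tagln, the lowest of them, had means of 7.06 CPM in KO and 4.73 CPM in WT. KO replicate 3 stood apart by skeletal muscle genes, at 817 CPM for 5 markers against 3.11 to 13.9 CPM in the other 5 libraries. WT replicate 2 stood apart by Lyz2, a macrophage lysozyme gene, with 523 counts against 71223 to 126527 elsewhere. Its summed macrophage markers were not low, at 3680 CPM against 2370 to 2960 CPM in the other 5 libraries. The cause of the low Lyz2 count was not tested. The 5 white adipocyte markers summed to 284 to 439 CPM in KO, against 51.7, 74.9 and 277 CPM in WT replicates 1, 2 and 3, so that WT replicate 3 lay close to the KO libraries.

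Transcripts of the T cell receptor complex and coreceptors had lower means in KO than in WT for 10 of 10 genes, and 48.8% of all tested genes had a lower mean in KO. Summed over the 10 genes, the level was 168, 207 and 189 CPM in KO replicates 1, 2 and 3, against 279, 349 and 278 CPM in WT replicates 1, 2 and 3. The highest KO library lay below the lowest WT library. The median log2 fold change of the 10 genes was -0.70, where the median of all tested genes was 0.006. None of the 10 passed the threshold of an adjusted p under 0.05 by the quasi-likelihood test of edgeR (Benjamini-Hochberg), 0 of 10, where 0% of all tested genes passed as lower and 0.0123% in either direction. At an unadjusted p under 0.05, 9 of 10 were lower in KO, the exception being Cd8b1, against 6.08% of all tested genes. DESeq2 called 6 of 10 as lower, against 1.9% of the genes it gave an adjusted p, and limma-voom called 0, as it did over all genes (0%). With no filter on low counts edgeR called 7 of 10 as lower, against 1.02% of all genes, and without WT replicate 3 it called 0 of 10, against 0.48%. In 8 of 10 genes the KO libraries all lay below the WT libraries, against 9.01% of all tested genes, and the exceptions were Cd8a and Cd8b1. The 10 genes were chosen with earlier results of these data known, so these counts and shares are a description. In a bulk sample, fewer T cells, less of these RNAs per T cell and more RNA from other cells cannot be told apart.

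**Figure D1:**
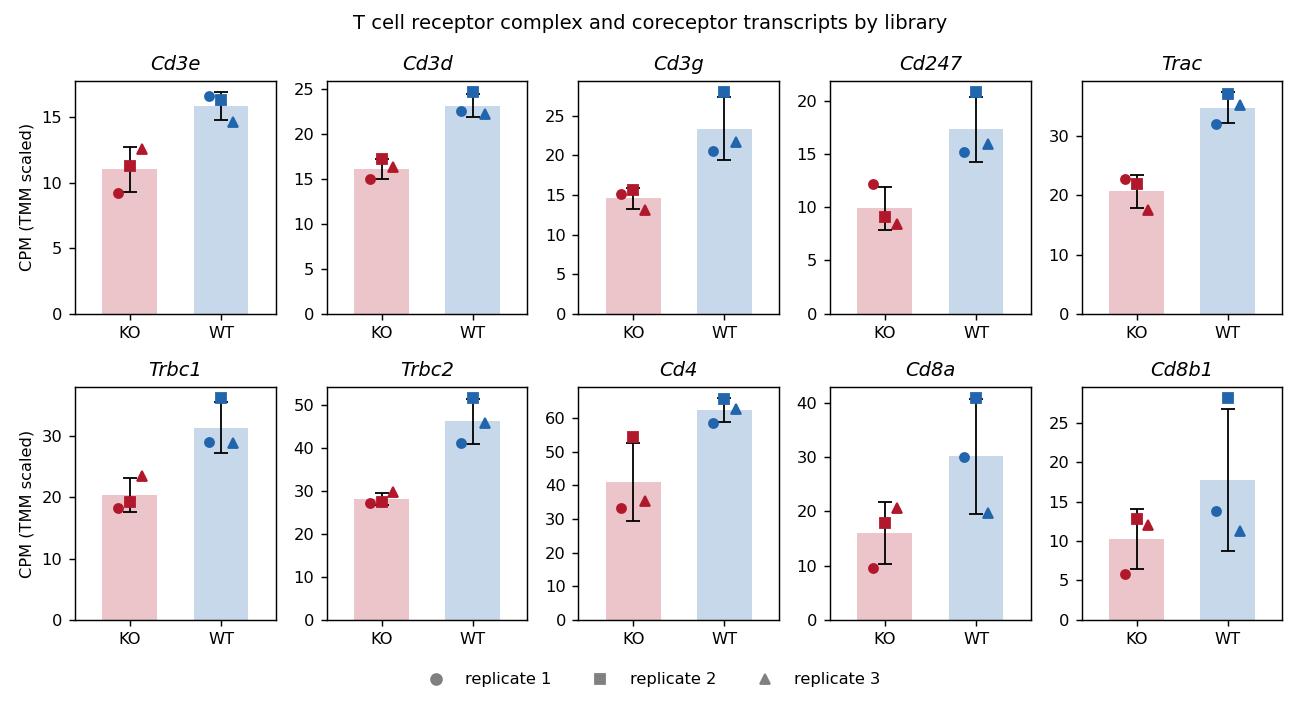
Level of each gene in CPM (vertical axis, from 0) in 3 KO and 3 WT libraries, with points for replicates, bars for means and error bars for the SD. The KO and WT points do not overlap for 8 genes and overlap for Cd8a and Cd8b1.

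The constant regions of the antigen-binding chains had the highest levels per length. Trac, the constant region of the alpha chain, had 22.7, 21.9 and 17.5 CPM in KO replicates 1, 2 and 3, against 32, 37.2 and 35.3 CPM in WT replicates 1, 2 and 3. All KO values were below all WT values, with a log2 fold change of -0.75 (standard error 0.14, 95% interval -1.06 to -0.44, edgeR adjusted p = 0.103). Trbc2 had 27.3, 27.4 and 29.7 CPM in the KO libraries, against 41.2, 51.6 and 45.8 CPM in the WT libraries. It had the tightest KO values of the 10 genes, with an SD of 0.07 on the log2 CPM scale, and the smallest p of them, at a log2 fold change of -0.72 (standard error 0.12, 95% interval -0.99 to -0.44, edgeR adjusted p = 0.102). By unadjusted p, Trbc2 ranked 30 and Trac 65 among the 16237 tested genes. Trbc1 had 18.2, 19.3 and 23.5 CPM in KO, against 29, 36.2 and 28.9 CPM in WT, again without overlap, and a log2 fold change of -0.62 (standard error 0.15, edgeR adjusted p = 0.168). For Trac and Trbc2 the adjusted p by DESeq2 was 0.000963 and 0.000412, and over all 16 alternatives of the main test their adjusted p ranged up to 0.278 and 0.273.

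The invariant chains differed in the same direction. Cd3e, whose protein forms pairs with both CD3 delta and CD3 gamma, had 9.18, 11.3 and 12.6 CPM in KO, against 16.6, 16.3 and 14.6 CPM in WT. Its KO libraries spread more than its WT libraries, with SDs of 0.23 and 0.10 in log2 CPM, but did not reach the lowest WT library (log2 fold change -0.52, standard error 0.16, edgeR adjusted p = 0.266). Cd3d, the delta chain, had 15, 17.2 and 16.3 CPM in KO, against 22.6, 24.7 and 22.3 CPM in WT. Both groups were tight, and Cd3d had the narrowest range of estimates over the alternatives, -0.56 to -0.47 around a log2 fold change of -0.52 (standard error 0.13, edgeR adjusted p = 0.172). Cd3g, the gamma chain, had 15.1, 15.6 and 13.1 CPM in KO, against 20.5, 28 and 21.7 CPM in WT, with WT replicate 2 the highest. Its estimated log2 fold change was -0.68 (standard error 0.16, edgeR adjusted p = 0.157). Cd247, the zeta chain, which NK cells also use, had 12.2, 9.11 and 8.39 CPM in KO, against 15.2, 20.8 and 15.9 CPM in WT. It had the largest difference of the 4 invariant chains, with a log2 fold change of -0.80 (standard error 0.20, edgeR adjusted p = 0.172). Of its annotated exon bases, 60.3% are overlapped by Pou2f1 on the opposite strand or by Gm16565 on its own strand, so the count of Cd247 is uncertain, in part even where strand was used. Pou2f1 itself had 15.3 ± 1.92 CPM in KO, against 13.8 ± 3.57 CPM in WT (mean ± SD, n = 3 each), with an estimate of 0.14 (SE 0.20) on the log2 scale.

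Among the coreceptors, Cd4 kept the 2 genotypes apart and the CD8 genes did not. Cd4, which some dendritic cells also express, had 33.2, 54.5 and 35.3 CPM in KO, against 58.7, 65.7 and 62.8 CPM in WT. KO replicate 2 came close to the lowest WT library, and the estimated log2 fold change was -0.60 (standard error 0.18, edgeR adjusted p = 0.253). Cd8a, the alpha chain of CD8, had 9.52, 17.9 and 20.6 CPM in KO, against 29.9, 40.8 and 19.6 CPM in WT. WT replicate 3 lay below KO replicate 3, and the estimate was the most negative of the 10 at -0.91 (standard error 0.32, 95% interval -1.63 to -0.19, edgeR adjusted p = 0.32). Cd8b1, the beta chain, found on conventional cytotoxic T cells, had 5.85, 12.8 and 12 CPM in KO, against 13.8, 28.1 and 11.3 CPM in WT. The genotypes overlapped, KO replicate 1 and WT replicate 2 were the extremes, and the 95% interval of the log2 fold change of -0.79 reached from -1.65 to 0.07 (standard error 0.38, edgeR adjusted p = 0.487). The biological coefficient of variation, the spread between libraries beyond counting error, was 28% for Cd8a and 33.1% for Cd8b1, against 12.7 to 18.9% for the other 8 genes. Without WT replicate 2 the log2 fold change of Cd8b1 was -0.30, and without WT replicate 3 it was -1.03. Cd8a stood at -0.63 without WT replicate 2 and at -1.14 without WT replicate 3.

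**Figure D2:**
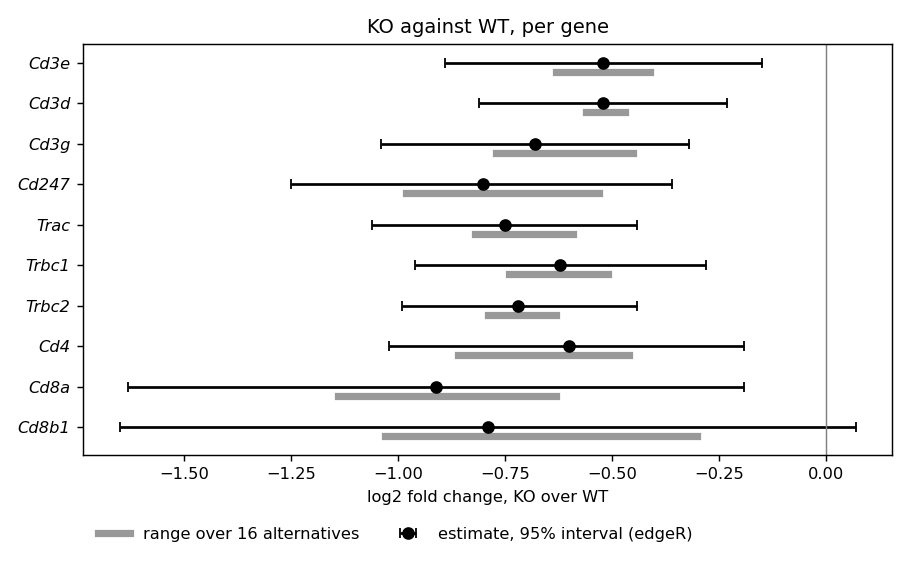
Log2 fold change of KO over WT (horizontal axis) for each gene, with points for edgeR's estimate, thin bars for its 95% interval and grey bars for the range over 16 alternative settings. All estimates lie below 0, and the interval of Cd8b1 alone crosses 0, reaching 0.07.

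Levels can be compared between genes only per length. In KO, CPM per kilobase of exon was 40.6 ± 2.03 for Trbc2, 27.2 ± 3.75 for Trbc1 and 22.1 ± 2.96 for Trac, and in WT it was 66.7 ± 7.53, 41.9 ± 5.6 and 37.2 ± 2.79 for the same genes (SD, n = 3 each). Cd4 followed at 10.2 ± 2.91 in KO and 15.5 ± 0.874 in WT, then Cd3d at 8.91 ± 0.596 in KO and 12.8 ± 0.723 in WT. Cd8b1, Cd8a and Cd3g overlapped each other between 2.62 and 8.62 in KO, and between 5.4 and 19 in WT. Cd3e (2.7 ± 0.421 in KO, 3.88 ± 0.273 in WT) and Cd247 (1.86 ± 0.382 in KO, 3.24 ± 0.575 in WT) were the lowest and overlapped each other in both genotypes. Neighbours in this order whose libraries did not overlap were Trbc2 over Trbc1 and Trac over Cd4 in both genotypes, Trbc1 over Trac in KO, and Cd4 over Cd3d and Cd3g over Cd3e in WT. The places of Trbc1 and Trbc2 are uncertain, because reads in their identical runs can be dropped or split. In KO the lowest Trbc1 library, at 24.4, barely exceeded the highest Trac library, at 24.2. Exon lengths are those of all annotated transcripts, retained introns included, which lowers the per-length level of Cd3e (4080 bases of exon) and Cd247 (5329 bases) against compact genes such as Trbc2 (692 bases).

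The composition of the T cell transcripts was examined by ratios of counts within a library, which do not depend on scaling. The ratio of Cd8a to Cd4 was 0.287, 0.328 and 0.583 in KO replicates 1, 2 and 3, against 0.509, 0.621 and 0.313 in WT replicates 1, 2 and 3. The genotypes overlapped, and the difference of KO minus WT in the log2 ratio was -0.28 (SE 0.43). Cd8b1 to Cd8a, a ratio that dendritic cells with CD8 alpha alone would lower, was 0.638 ± 0.0702 in KO and 0.577 ± 0.114 in WT (SD, n = 3 each; log2 difference 0.16, SE 0.19). Cd247 to Cd3e was 0.936 ± 0.349 in KO and 1.09 ± 0.181 in WT (log2 difference -0.27, SE 0.33). The ratio of Trbc1 to Trbc2 was 0.722 ± 0.0627 in KO and 0.679 ± 0.0409 in WT (log2 difference 0.09, SE 0.09). Trdc, the constant region of the delta chain of gamma delta T cells, stood to Trac at 0.272 ± 0.0896 in KO and 0.274 ± 0.0939 in WT (log2 difference 0.00, SE 0.42). Trdc itself had 4.42, 5.42 and 6.48 CPM in KO, against 11.3, 11 and 5.99 CPM in WT, with WT replicate 3 among the KO libraries. Of 6 ratios compared, the exact two-sided permutation p lay between 0.3 and 1 (0.72 to 1 after Benjamini-Hochberg adjustment), where 3 against 3 cannot give less than 0.1. The design therefore could not call any of them.

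**Figure D3:**
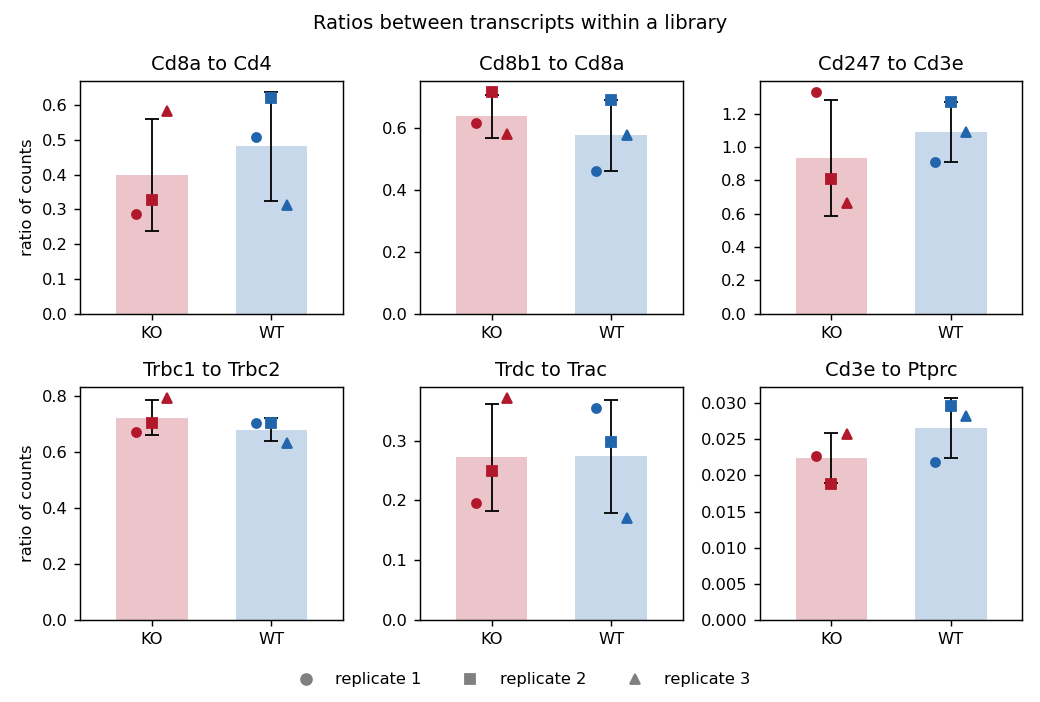
Ratios of counts of gene pairs within each library (vertical axes, from 0), for 3 KO and 3 WT libraries, with bars for means and error bars for the SD. KO and WT points overlap in each of the 6 panels.

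Set against Ptprc, which encodes the leukocyte surface protein CD45, the differences were smaller. Ptprc had 406, 601 and 491 CPM in KO, against 763, 553 and 517 CPM in WT, which overlapped (log2 fold change -0.29, standard error 0.20, edgeR adjusted p = 0.65). The ratio of Cd3e to Ptprc was 0.0224 ± 0.00347 in KO and 0.0265 ± 0.00413 in WT (SD, n = 3 each; log2 difference -0.25, SE 0.19, exact permutation p = 0.3, two-sided). Relative to Ptprc, 10 of 10 genes still had a lower mean log2 level in KO, by -0.23 for Cd3d to -0.63 for Cd8a. On that scale all KO libraries lay below all WT libraries for 0 of 10 genes and for 0.684% of all tested genes. With so low a share over all genes, 0 of 10 does not set the members apart. WT replicate 1 had the highest Ptprc. Relative to Ptprc it had the lowest level among the WT libraries for each of the 10 genes except Cd8a, which was lowest in WT replicate 3.

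Other genes of the pathway were examined as a list of 29 genes of proximal T cell receptor signalling. All 29 were tested, 27 had lower and 2 higher means in KO, and the median log2 fold change was -0.43. By edgeR 0 passed in either direction, and at an unadjusted p under 0.05 there were 18, all lower in KO, where 6.08% of all tested genes were. In 19 of 29 the KO libraries all lay below the WT libraries, where 9.01% of all tested genes did. This list too was chosen with earlier results of these data known, so its counts are a description. Lck, the kinase that phosphorylates the CD3 tails, had 37.5 ± 3.8 CPM in KO, against 56.6 ± 7.14 CPM in WT (mean ± SD, n = 3 each), and an estimate of -0.59 (SE 0.13) on the log2 scale. Zap70, the kinase recruited to the phosphorylated tails, had 14.9 ± 1.02 CPM in KO, against 23.9 ± 4.14 CPM in WT, and an estimate of -0.68 (SE 0.16). Themis, a T cell adaptor that tunes signal strength, had the most negative estimate of the list at -1.16 (SE 0.24), with 3.39 ± 0.819 CPM in KO, against 7.57 ± 0.661 CPM in WT. Fyn, a Src family kinase also made by other cells, had -0.51 (SE 0.10), the adaptor gene Skap1 -0.78 (SE 0.18) and the surface receptor gene Cd6 -0.78 (SE 0.18). The adjusted p-values of these 6 genes were 0.104 to 0.157 by edgeR. Plcg1 and Skap2 had estimates of -0.01 (SE 0.10) and 0.02 (SE 0.11) and were picked as examples after their values were seen. Whether the estimates in this list depended on how widely a gene is expressed was not tested.

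**Figure D4:**
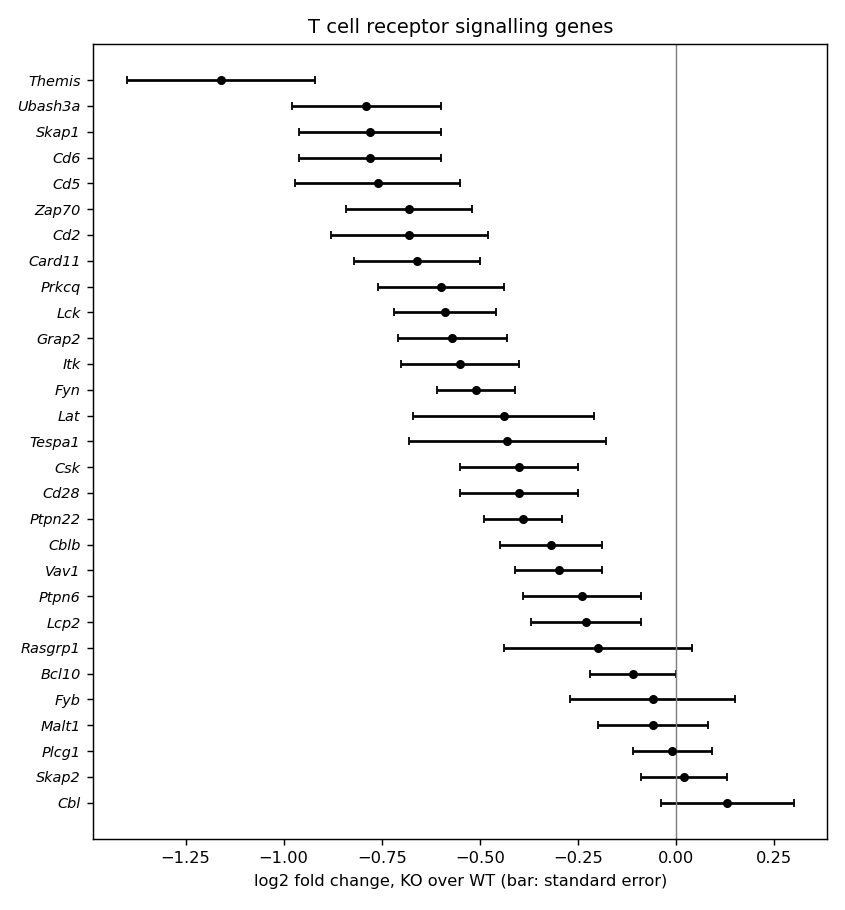
Log2 fold change of KO over WT (horizontal axis) for 29 genes of T cell receptor signalling, with points for edgeR's estimate and bars for its standard error. Points for 27 genes lie below 0, from Themis at -1.16, and Skap2 and Cbl lie above it.

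Genes whose log2 CPM followed the 10 genes most closely over the 6 libraries were sought among the other tested genes, with T cell receptor segments left out. They were Pml, Cd27, Gng2, Themis2 and Tdrd7, with Pearson correlations of 0.997, 0.996, 0.994, 0.992 and 0.991 to the mean profile of the 10 genes. Cd27, a costimulatory receptor of T cells, had 9.76 ± 1.3 CPM in KO libraries, against 16 ± 2.51 CPM in WT libraries (SD, n = 3 each). Pml, which encodes the scaffold of PML nuclear bodies, had 88.2 ± 10.5 CPM in KO libraries, against 164 ± 34.5 CPM in WT libraries. Of 16206 genes compared, 459 had a correlation above 0.9, and the correlations share the genotype difference and the libraries. Within the 10 genes, 6 pairs were compared by their correlation of log2 CPM over the 6 libraries. Trbc1 and Trbc2 had 0.96, Cd8a and Cd8b1 had 0.95, and Cd3d and Cd3g had 0.93. The value of Trbc1 and Trbc2 is uncertain, because they share identical stretches. Trac and Trbc2, Cd4 and Cd8a, and Cd3e and Cd247 had 0.91, 0.73 and 0.63. The other pairs were not compared, so these values do not show whether neighbouring genes follow each other more closely.

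Markers of other cell types were summed in the same libraries. Of 58 tested markers outside the T cell lists, edgeR called 0 and limma-voom 0, where over all tested genes they called 2 and 0. DESeq2 called 6 of the markers as lower and 5 as higher in KO. Over the 14962 genes it gave an adjusted p, it called 454, 285 of them lower. By edgeR, 9 markers lower and 14 higher in KO had an unadjusted p under 0.05. Over all 16237 tested genes 1836 did, 987 of them lower. The 6 NK cell markers summed to 62.1 to 89.6 CPM in KO and 105 to 153 CPM in WT, with lower means in KO for 6 of 6. Klrd1, a lectin receptor chain of NK and some T cells, was measured at 26.8 ± 1.6 CPM in KO libraries, against 48.8 ± 9.24 CPM in WT libraries. The 6 dendritic cell markers summed to 103 to 128 CPM in KO and 164 to 201 CPM in WT, also with 6 of 6 lower. Without Ccr7, the dendritic cell marker with the highest mean CPM, the other 5 summed to 67.4 to 97.2 CPM in KO and 95.9 to 146 CPM in WT, which overlapped. The 5 pan-leukocyte markers summed to 1650 to 1900 CPM in KO and 2100 to 2490 CPM in WT, with 5 of 5 lower and a median log2 fold change of -0.29. B cell markers overlapped at 28.7 to 41.3 CPM in KO and 24.9 to 40.3 CPM in WT, as did 6 macrophage markers at 2370 to 2960 CPM in KO and 2590 to 3680 CPM in WT, and 6 neutrophil markers at 606 to 833 CPM in KO and 596 to 670 CPM in WT. The neutrophil markers had higher means in KO for 6 of 6. Without Csf3r, the neutrophil marker with the highest mean CPM, the other 5 summed to 426 to 560 CPM in KO and 381 to 418 CPM in WT. Each KO library then lay above every WT library. Markers of smooth muscle (1480 to 2380 CPM in KO, 846 to 1320 CPM in WT) and white adipocytes (284 to 439 CPM in KO, 51.7 to 277 CPM in WT) were higher in each KO library than in any WT library. Without Adipoq, the other 4 adipocyte markers summed to 161 to 248 CPM in KO and 31.5 to 180 CPM in WT, which overlapped. The 6 lymph node stroma markers summed to 30.2 to 84.6 CPM in KO and 10.6 to 20.8 CPM in WT, again higher in each KO library than in any WT library. That separation rested on Ccl21a, with 13.3, 66 and 20.7 CPM in KO libraries, against 10.8, 4.12 and 2.53 CPM in WT libraries. The other 5 overlapped, at 11.2 to 18.5 CPM in KO and 6.49 to 18.2 CPM in WT. Of the thymocyte genes, Rag2 had 0 counts in all 6 libraries, Rag1 had 1 count in a single WT library, and Ptcra had at most 4 counts. Dntt, the fourth, had 33 to 96 counts per library, or 2.97 ± 1.74 CPM in KO libraries and 4.79 ± 1.44 CPM in WT libraries (SD, n = 3 each). The part of these other cell types in the lower T cell transcripts was not tested.

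**Figure D5:**
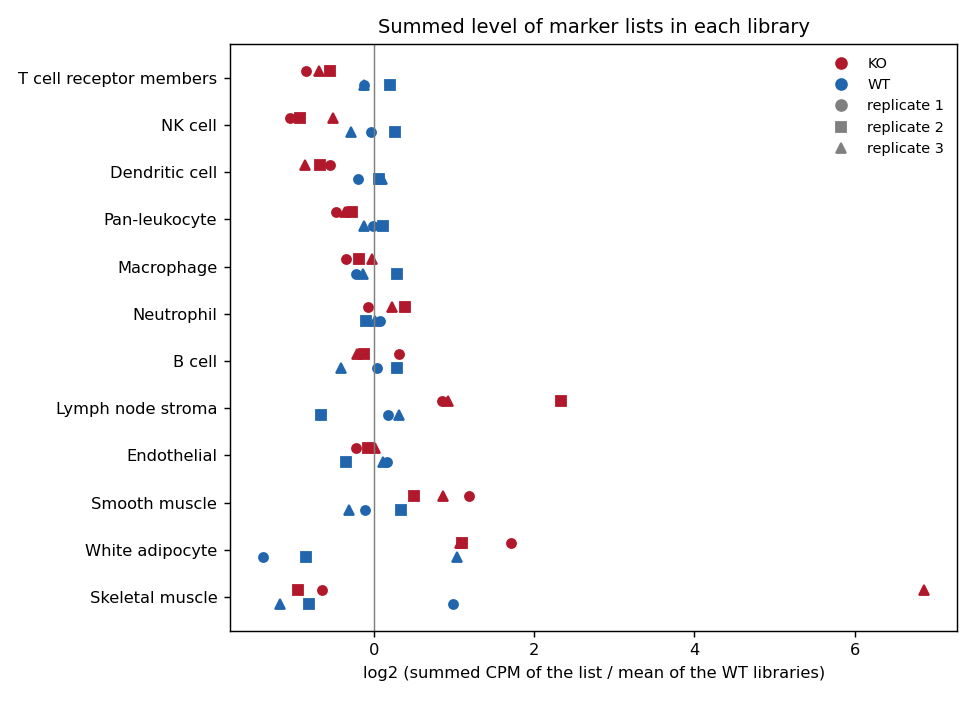
Summed CPM of each marker list in each library, as log2 of its ratio to the mean of the WT libraries (horizontal axis), with KO above WT in each row and symbols for replicates. KO libraries lie left of all WT libraries for the T cell receptor genes, NK cell, dendritic cell and pan-leukocyte lists, and KO replicate 3 lies far right for skeletal muscle.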

How the data were processed

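Total RNA from mouse abdominal aorta was bound to poly-T beads and reverse transcribed with random hexamers, per the labels' protocols. The values deposited by the authors are raw counts of reads for 54532 genes, with 1 column for each of 6 libraries. The submitters' processing notes name HISAT2 2.0.5, featureCounts 1.5.0-p3 and GRCm38. Neither the strand setting nor the handling of multi-mapped reads is stated in the labels.

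Genes passing filterByExpr by genotype were scaled by TMM and tested, KO against WT, by the quasi-likelihood test of edgeR 4.0.16 (R 4.3.3, limma 3.58.1) on all 16237 genes, with Benjamini-Hochberg adjustment and a threshold of 0.05. Standard errors are the log2 fold change over the square root of F. Printed CPM use TMM-scaled library sizes, and log2 CPM a prior count of 2; log2 ratios of counts used a prior count of 0.5 and exact permutation tests (scipy 1.17.1). The common coefficient of variation was 19.6%. Library totals were 17248918 to 21872027 counts, and no pair of libraries agreed within sampling noise (chi-square per degree of freedom of 25.6 to 81 over genes with at least 20 counts). Positions and exon lengths came from GENCODE mouse release 21 on GRCm38, and promoters from RefSeq on GRCm38.p6. The test was tried on simulated counts for KO against WT (16009 genes tested). Recovery was 12.3% at a fold of 1.5, 52.3% at a fold of 2 and 86.2% at a fold of 4, and 14 of 112 calls were false, a share above 0.05. Counts were drawn for each gene independently, so the simulation lacked the differences in tissue content between the real libraries. It gave 112 calls where the main test of the real counts gave 2, so its recovery need not hold for these data. The members, the marker lists and the tests were chosen with earlier results of these data known. All 10 members were named; of the pathway list, the 6 genes with the smallest p; of the genes most alike, the first 5. Markers of gamma delta T cells were 5 genes, of which 2 (Trdc and Sox13) were matched by symbol, with a summed level of 20 to 23.1 CPM in KO and 22.8 to 24.6 CPM in WT. Endothelial markers summed to 465 to 550 CPM in KO and 427 to 612 CPM in WT, and thymocyte markers to 1.54 to 4.91 CPM in KO and 3.26 to 6.06 CPM in WT. The alternatives were 3 scalings, 2 filters, DESeq2 1.42.0, limma-voom, robust dispersion, the replicate number as a block, and 6 fits that left out a library each. One more, chosen after seeing the data, left out KO replicate 3 and WT replicate 2 together. Plots used matplotlib 3.10.9.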

Additional observations from a re-analysis of the deposited data

How the results depend on the processing

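All 10 log2 fold changes kept their sign under all 16 alternatives. The median of the 10 ranged from -0.78 (without WT replicate 1) to -0.55 (without WT replicate 2). No member passed by edgeR except with no low-count filter, which called 7 (644 of all genes, 302 of them lower in KO), while DESeq2 called 6 members (454 genes). With the filter at a mean of 1 CPM, with limma-voom and with the replicate block, 0 genes were called, and robust dispersion called 1, against 2 in the main test; the causes were not tested. Leaving out a library in turn called 0 to 155 genes and 0 members, the 155 without WT replicate 3. Without WT replicate 1 or KO replicate 1 the test called 0 genes, and without WT replicate 2 it called 1. Leaving out KO replicate 3 and WT replicate 2 together called 3 genes and 0 members, with a median of -0.56. The log2 ratio of Trdc to Trac, 0.00 with all libraries, changed sign to -0.25 without KO replicate 3 and -0.31 without WT replicate 3, ranging from -0.31 to 0.22 with a library left out; the other 5 ratios kept their sign but moved in size. The ratio of Cd8a to Cd4, -0.28 with all libraries, shrank to -0.07 (WT replicate 2 left out), -0.08 (KO replicate 1) and -0.18 (KO replicate 2), and grew to -0.57 (WT replicate 3) and -0.59 (KO replicate 3). With a library left out, Cd247 to Cd3e ranged from -0.56 (without KO replicate 1) to -0.06 (KO replicate 3), Cd8b1 to Cd8a from 0.01 (WT replicate 1) to 0.30 (WT replicate 2), Trbc1 to Trbc2 from 0.02 (KO replicate 3) to 0.14 (KO replicate 1), and Cd3e to Ptprc from -0.38 (WT replicate 1) to -0.12 (KO replicate 2). The replicate numbers did not pair the libraries: same-numbered libraries had correlations of deviations of -0.10, -0.06 and -0.12, and 0 of 6 correlated best with their own number. Under the replicate block 10 of 10 members had an unadjusted p under 0.05 by edgeR, where 1606 of all 16237 tested genes did. The ratio of Cd8a to Cd4 had the same paired difference of -0.28. The lowest counts of Cd8b1 and Trdc in a library were 102 and 77, in KO replicate 1.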
